A study of Mus musculus with 4 samples.

Results

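The microRNAs (miRNAs) miR-122, miR-192, miR-194, miR-148a and miR-802, all known for high or specific levels in liver, were followed in the small RNA of mouse whole blood. They were chosen by name, and the files list them as mmu-mir-122, mmu-mir-192, mmu-mir-194-1, mmu-mir-148a and mmu-mir-802. Of 6 locus names searched (miR-194 has 2 loci), 5 were listed among the 374 annotated miRNA loci found in at least 1 library, and 4 were listed in all 4 libraries. miR-122 was listed in 3 libraries, and the miR-194-2 locus in 0. Blood came from Balb/c mice aged 180 days that drank either water (control, 2 libraries) or water with cadmium added (2 libraries). Neither the cadmium dose nor its duration is stated in these sources. Separate animals are not named for the libraries either, and each p-value below reflects the spread among these libraries, which may be technical.

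miRNAs are short RNAs that pair with messenger RNAs, mostly through a seed of bases 2 to 8, and lower their translation or stability. miR-122 is the dominant miRNA of hepatocytes, where it acts on lipid metabolism, and its level in plasma is widely used as a sign of liver injury. miR-192 and miR-194 are transcribed together and are enriched in liver, gut and kidney. miR-148a is abundant in liver, where it acts on lipid handling, and is also found in lymphocytes. miR-802 is a liver and pancreas miRNA linked to glucose handling.

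Sequences from RefSeq (GRCm38.p6) are shown because the results turn on which miRNAs share a seed and which loci share a whole mature sequence. RefSeq entries were matched for 8 of the 9 names formed by these miRNAs and their seed or cluster relatives miR-215, miR-148b and miR-152. Capitals mark the seed.
miR-192-5p: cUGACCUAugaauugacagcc
miR-215-5p: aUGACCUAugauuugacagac
miR-194-5p: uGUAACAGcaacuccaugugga
miR-148a-3p: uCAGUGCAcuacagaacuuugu
miR-148b-3p: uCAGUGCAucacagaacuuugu
miR-152-3p: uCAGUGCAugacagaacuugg
miR-802-5p: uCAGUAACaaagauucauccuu
miR-192 and miR-215 have the same seed and differ by C1A, A12U and C20A, counted from 1 at the 5′ end with the base of miR-192 first. miR-148a, miR-148b and miR-152 also share a seed. miR-148a differs from miR-148b by C9U and U10C, and from miR-152 by C9U, U10G and U20G, with the base of miR-148a first.

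In the mm10 build, miR-192 was counted at chr19:6264857-6264877 (plus strand) and miR-194-1 at chr1:185313325-185313346 (plus strand). miR-192 lies 115 bases after the miR-194-2 hairpin, and miR-215 lies 195 bases after the miR-194-1 hairpin. The chromosome 1 pair is on the strand opposite to Iars2, with miR-194-1 in an intron and miR-215 in an exon of the noncoding gene 2010103J01Rik. miR-148a was counted at chr6:51269830-51269850 (minus strand) and miR-802 at chr16:93369737-93369759 (plus strand), and GENCODE M21 has no other gene over either. miR-148b and miR-152 lie in introns of Copz1 and Copz2. Both miR-194 hairpins carry the same mature arm, marked in capitals.
miR-194-1 hairpin: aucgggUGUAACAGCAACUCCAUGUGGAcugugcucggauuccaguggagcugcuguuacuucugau
miR-194-2 hairpin: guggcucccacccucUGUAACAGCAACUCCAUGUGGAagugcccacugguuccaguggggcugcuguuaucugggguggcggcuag
Reads of miR-194 therefore cannot be assigned to one locus, although only the chromosome 1 locus was listed. The counted windows of the 5 liver-linked miRNAs, miR-215 and miR-148b were 21 to 23 bases long, so levels were set side by side without a correction for length.

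Annotated counts summed to 35244119 (control 1), 24622926 (control 2), 14383852 (cadmium 1) and 15565712 (cadmium 2). Levels are given as CPM, reads scaled to a common library size by the trimmed mean of M values (TMM). On this scale 1 read was worth 0.0318 CPM (control 1), 0.0446 CPM (control 2), 0.0618 CPM (cadmium 1) or 0.0588 CPM (cadmium 2). As a check of the tissue, 8 of 10 names of a red cell list were listed, and they held 58.6% to 60.8% of annotated reads in the controls and 55.1% to 56.4% in the cadmium libraries, with each mature sequence counted once. In bulk blood, fewer cells of a type and less RNA per cell cannot be told apart.

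miR-148a was the most abundant of the liver-linked miRNAs in these blood libraries, followed by miR-192 and then miR-194. The lowest miR-148a level of any library, 2123 CPM, lay above the highest miR-192 level, 1819 CPM, and the lowest miR-192 level, 1302 CPM, lay above the highest miR-194 level, 165 CPM. miR-802 and miR-122 stood at 6.71 CPM or below. This order is not that of hepatocytes, in which miR-122 is known to be the dominant miRNA. In control 1 there were 3573 reads of miR-192 per read of miR-122, and miR-122 ranked 234 of 286 mature sequences. This number was 225 for cadmium 1 and 194 for cadmium 2, where miR-122 ranked 126 of 248 and 127 of 247.

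**Figure D1:**
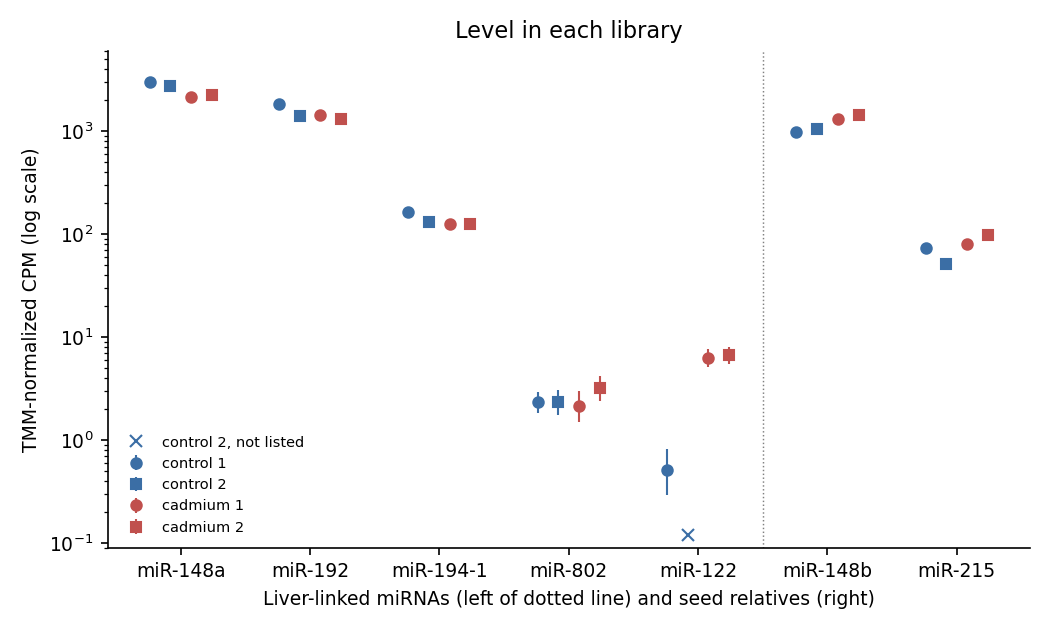
TMM-normalized CPM on a log axis for each library (circles are library 1 and squares library 2 of a group); bars are 95% Poisson intervals, which cover counting error only, and the cross marks control 2 of miR-122, which is not listed and has no level. miR-148a stands at 2123 to 2997 CPM, and miR-122 at 6.31 and 6.71 CPM in the cadmium libraries against 0.509 CPM in control 1.

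miR-122, counted at chr18:65248866-65248887 (plus strand) in an exon of the noncoding gene AC157910.3, was higher in both cadmium libraries than in the 1 control that listed it. Its reads numbered 16 (control 1), 102 (cadmium 1) and 114 (cadmium 2), and the list of control 2 lacks it. These counts are 0.509 CPM (95% Poisson interval 0.291 to 0.827), 6.31 CPM (5.14 to 7.65) and 6.71 CPM (5.53 to 8.06), and the intervals, which cover counting error only, do not overlap between groups. The ratio to control 1 was 12.4 (95% interval from counting error 7.27 to 22.5) for cadmium 1 and 13.2 (7.77 to 23.8) for cadmium 2. The raw counts themselves were higher with cadmium although both cadmium libraries are the shallower ones.

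The lowest count listed in any library was 5, so an unlisted miRNA is not a measured 0. With control 2 taken as 4 reads (0.178 CPM), an assumption and not a limit, miR-122 rose by 4.10 ± 0.41 on the log2 scale (SE, 2 libraries per group, 95% interval 3.10 to 5.10, edgeR adjusted p = 0.00261). This fit tested 296 loci, filled in the same way where a library did not list them, and called 15.5% of them, 7.77% as higher with cadmium. The same test without cadmium 1 gave 4.21 ± 0.63 (edgeR adjusted p = 0.162) and without cadmium 2 gave 4.06 ± 0.63 (edgeR adjusted p = 0.107), so the call was lost in each. Without control 2, where nothing is filled in for miR-122, the value was 3.62 ± 0.35 (edgeR adjusted p = 6.1e-20); here the lone control is assumed to vary like the close cadmium pair, and 44.9% of 296 loci were called. Without control 1 the value of 5.08 rests on the assumed 4 reads alone, in a fit that called 45.3% of loci. With 0 reads in place of 4 the log2 fold change was 4.46 ± 0.84 (edgeR adjusted p = 0.0304). miR-122 could pass the low-count filter only through its cadmium counts, so the filter used the high values that the test compares. Without that filter, again with 4 reads for control 2, it was 4.11 ± 0.44 (edgeR adjusted p = 0.00746).

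Loci absent from the control 2 list alone were not all low in the other libraries, and their control 2 counts are not known. The 7 loci unlisted only in control 2 included miR-3068, with 246 reads in control 1 and 78 and 84 with cadmium, and miR-3061, with 129, 32 and 38. Of 43 loci with 12 to 20 reads in control 1, 32 were listed in control 2 (a range chosen around the count of miR-122 after it was seen). Both cadmium libraries exceeded the raw count of control 1 at 2 of the 7 loci, miR-122 and the muscle miRNA miR-133b. Control 1 is the deeper library, so raw counts can hide a rise. Scaled to annotated totals and not by TMM, the cadmium mean over control 1 was 15.9 for miR-122 and 11.1 for miR-133b. Total counts put the median log2 fold change of all tested loci at 0.38, against 0.08 with TMM. Cadmium ratios and shares in this paragraph therefore run higher than on the TMM scale. By totals cadmium was also higher for miR-1249 (2.44) and miR-7227 (2.24), and lower for miR-3068 (0.78), miR-3061 (0.64) and miR-8105 (0.88). miR-133b had 8 reads in control 1 and 40 and 35 with cadmium. In the same fit, with control 2 again taken as 4 reads, it rose by 3.28 ± 0.38 (edgeR adjusted p = 0.00345). Like miR-122, it could pass the low-count filter only through its cadmium counts. The summed share of muscle markers was higher in both cadmium libraries. By far the most abundant of them was miR-133a, at 34.2 and 13.1 CPM in controls and 43.0 and 41.1 CPM with cadmium. It was not called (log2 fold change 0.83 ± 0.41, edgeR adjusted p = 0.237). miR-499 (-0.86 ± 0.52) and miR-208b (-0.70 ± 0.69) had negative log2 fold changes. Of 11 names on the muscle list 5 were listed, and they held 0.00545% and 0.00233% of annotated reads in controls and 0.00850% and 0.00798% with cadmium. miR-1a, miR-206 and miR-208a of that list are not analysed here. The part of other tissues in the miR-122 level was not tested.

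miR-192 and miR-194 moved together from library to library and did not pass the test. miR-192 levels were 1819 CPM (control 1), 1405 CPM (control 2), 1420 CPM (cadmium 1) and 1302 CPM (cadmium 2). Control 1 was the high library, and the groups overlapped. The log2 fold change was -0.24 ± 0.16 (SE, 2 libraries per group, 95% interval -0.62 to 0.14, edgeR adjusted p = 0.353), in a test of 276 loci listed in all libraries that called 14.5% of them. Without control 2 it was -0.42 ± 0.08 (edgeR adjusted p = 5.5e-07), a fit that called 44.5% of loci, and without control 1 it was -0.045 ± 0.081. miR-194 levels were 165 CPM (control 1), 132 CPM (control 2), 125 CPM (cadmium 1) and 124 CPM (cadmium 2), so that both controls lay above both cadmium libraries, as at 30.4% of the tested loci. Its log2 fold change was -0.30 ± 0.19 (95% interval -0.75 to 0.15, edgeR adjusted p = 0.344) in the 296 locus fit and -0.25 ± 0.20 among loci listed in all libraries. With 1 library left out, the miR-194 value was -0.14 without control 1 and -0.45 without control 2. It was -0.26 without cadmium 1 and -0.33 without cadmium 2. These fits leave 1 library in a group and are given as values only.

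Ratios within a library do not depend on how libraries are scaled. The number of miR-192 reads per miR-194 read was 11.0 (control 1), 10.7 (control 2), 11.4 (cadmium 1) and 10.5 (cadmium 2). The mean log2 ratio differed by 0.01 between the groups, less than the range of 0.12 between the cadmium libraries.

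miR-215, which shares the seed of miR-192 and lies beside miR-194-1, did not keep that proportion. Its levels were 72.4 CPM (control 1), 50.6 CPM (control 2), 80.5 CPM (cadmium 1) and 98.6 CPM (cadmium 2), a log2 fold change of 0.54 ± 0.25 (95% interval -0.05 to 1.13, edgeR adjusted p = 0.206). It passed with upper quartile scaling (0.80, edgeR adjusted p = 0.0172), which called 20.7% of loci. With 1 library left out the value was 0.82 without control 1, 0.31 without control 2, 0.68 without cadmium 1 and 0.39 without cadmium 2. These fits leave 1 library in a group, and whether miR-215 passed depended on which group lost a library. The groups did not overlap, as at the 39.5% of tested loci with both cadmium libraries above both controls. There were 25.1 and 27.8 miR-192 reads per miR-215 read in controls and 17.6 and 13.2 with cadmium, with no overlap and a difference of -0.79 in the mean log2 ratio. The share of other ratios without overlap was not counted, but levels did not overlap at 69.9% of tested loci. The ratio of miR-194 to miR-215, 2.28 and 2.60 in controls and 1.55 and 1.26 with cadmium, showed a like difference of -0.80. An exact permutation test of 2 libraries against 2 cannot reach the threshold of 0.05, so these ratios are given as values. Because miR-192 far exceeds miR-215, it still held 96.2% and 96.5% of the reads of this seed pair in controls and 94.6% and 93.0% with cadmium.

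**Figure D2:**
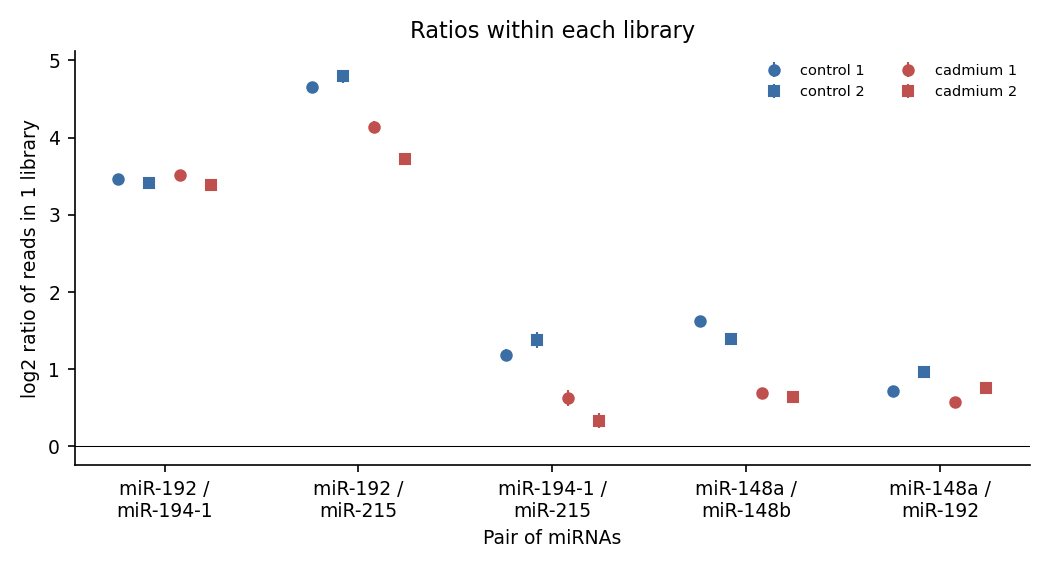
log2 ratio of reads of 2 miRNAs within each library, with bars of 95% counting intervals (most are smaller than the symbol). The miR-192 to miR-194 ratio is level across the libraries, while the ratios to miR-215 and of miR-148a to miR-148b are lower in both cadmium libraries than in both controls.

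miR-148a was lower in both cadmium libraries than in both controls, and its seed relative miR-148b was higher, yet neither passed the main test. miR-148a levels were 2997 CPM (control 1), 2739 CPM (control 2), 2123 CPM (cadmium 1) and 2208 CPM (cadmium 2). Groups that do not overlap were found at 69.9% of tested loci. Its log2 fold change was -0.41 ± 0.12 (SE, 2 libraries per group, 95% interval -0.70 to -0.12, edgeR adjusted p = 0.0707). The call depended on the processing: it passed with DESeq2 size factors (-0.50, edgeR adjusted p = 0.0355), which called 17.4% of loci, and with the DESeq2 test (adjusted p = 0.0420), which called 18.5%. The value shrank to -0.11 with total counts alone and to -0.16 with upper quartile scaling. Those 2 scalings moved the median of all tested loci by 0.30 and 0.24, about as much as they moved miR-148a. It also passed without control 1 (-0.34, edgeR adjusted p = 5.3e-05) and without control 2 (-0.47, edgeR adjusted p = 3.6e-09), fits that called 38.2% and 44.5% of loci. It did not pass without cadmium 1 (-0.38, edgeR adjusted p = 0.600) or cadmium 2 (-0.43, edgeR adjusted p = 0.517).

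miR-148b levels were 973 CPM (control 1), 1047 CPM (control 2), 1309 CPM (cadmium 1) and 1419 CPM (cadmium 2), a log2 fold change of 0.43 ± 0.14 (95% interval 0.11 to 0.76, edgeR adjusted p = 0.0730). It was 0.73 with total counts (edgeR adjusted p = 0.0128; 23.6% of loci called) and 0.67 with upper quartile scaling (edgeR adjusted p = 0.00642). With 1 library left out it was 0.38 without control 1, 0.49 without control 2, 0.49 without cadmium 1 and 0.37 without cadmium 2. Whether miR-148b passed in these fits depended on which group lost a library. Per read of miR-148b the reads of miR-148a numbered 3.08 (control 1), 2.62 (control 2), 1.62 (cadmium 1) and 1.56 (cadmium 2). The mean log2 ratio differed by -0.84, and the nearest libraries of the groups lay 0.69 apart, against a range of 0.24 between controls and 0.06 between cadmium libraries. miR-148a made up 73.9% ± 2.22 of the reads of the pair in the controls and 61.4% ± 0.689 in the cadmium libraries (SD, n = 2). The summed level of the pair averaged 3878 ± 130 CPM over the controls and 3530 ± 137 CPM over the cadmium libraries (SD). The window counted for miR-148b was 22 bases in both controls and 21 bases in both cadmium libraries, ending 1 base earlier, while that of miR-148a was 21 bases in all 4. The part of this shift in the ratio cannot be told apart from the group.

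miR-152, the third miRNA with this seed, was counted on the 5′ arm in control 1 (26 reads) and on the 3′ arm in control 2 (12 reads in a window of 18 bases) and cadmium libraries 1 and 2 (40 and 49 reads). These counts measure different products and were not tested.

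miR-802 was rare and was not called as changed. Its reads numbered 73 (control 1), 53 (control 2), 35 (cadmium 1) and 54 (cadmium 2), which are 2.32, 2.36, 2.16 and 3.18 CPM. The groups overlapped, and the log2 fold change was 0.19 ± 0.27 (95% interval -0.44 to 0.83, edgeR adjusted p = 0.636). It was -0.11 without cadmium 2 and 0.18 to 0.44 without 1 of the other libraries. With total counts it was 0.49 ± 0.27, and with upper quartile scaling it was 0.44 ± 0.38. In control 1 there were 0.219 reads of miR-122 per read of miR-802, against 2.91 (cadmium 1) and 2.11 (cadmium 2).

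**Figure D3:**
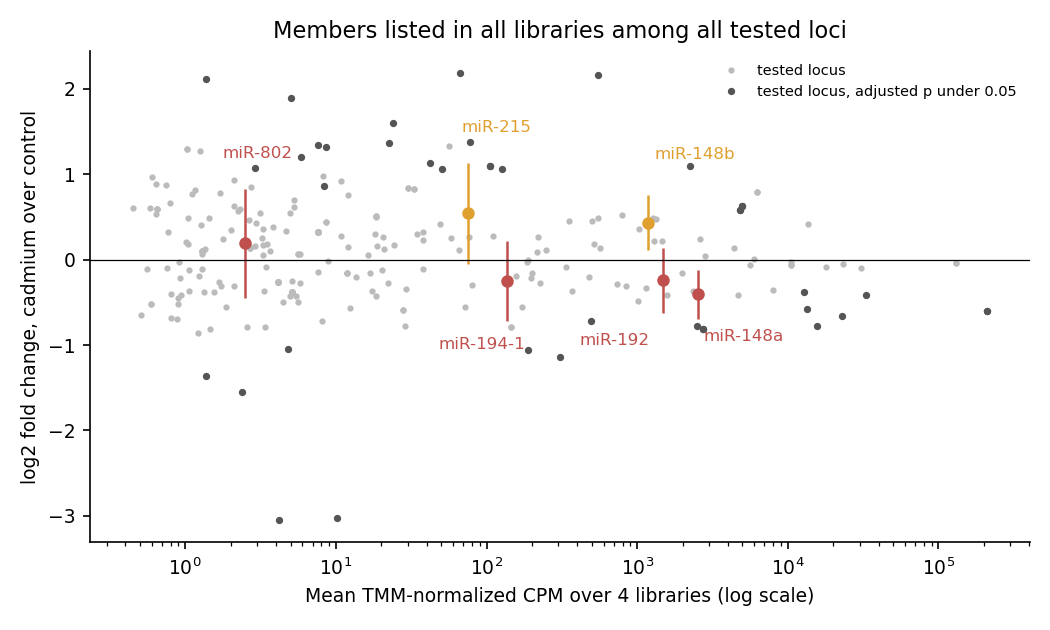
log2 fold change of cadmium over control against mean CPM (log axis) for the 276 tested loci, with 95% intervals for the liver-linked miRNAs (red) and their seed relatives (orange). The intervals of miR-192, miR-194 and miR-802 span 0; that of miR-148a lies below and that of miR-148b above 0, and none of the 6 has an adjusted p under 0.05.

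The 4 liver-linked loci in the test of loci listed in all libraries had 0 called by edgeR (14.5% of all 276 loci were) and a median log2 fold change of -0.25, against 0.08 over all tested loci. At an unadjusted p under 0.05 the count was 1, miR-148a (28.6% of all loci). By adjusted p the count was 1 with DESeq2, which called 18.5% of all loci, and 0 with limma voom, which called 13.8%. Their summed share with miR-122 was 0.731% and 0.633% of annotated reads in controls and 0.669% and 0.647% with cadmium. A list of 15 other names abundant in liver had 9 tested loci, of which 0 rose and 1 fell (7.97% of all tested loci rose and 6.52% fell), with a median of -0.06. The 1 was miR-27b, known from lipid metabolism, at -0.78 ± 0.14 (edgeR adjusted p = 0.00938); it is outside the naming rule and was singled out after its value was seen. The most abundant loci of that list, miR-22 and miR-26a-2, had -0.10 ± 0.08 and -0.06 ± 0.12.

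Since miR-192 and miR-194 are also enriched in kidney and gut, a list of those tissues was set beside them. Over all 276 tested loci 7.97% rose and 6.52% fell (median 0.08), which is the background for the lists here. Of the 14 tested loci on the kidney and gut list, 1 rose and 3 fell (median -0.02). The most abundant were miR-30a, which fell by 0.66 ± 0.09 (edgeR adjusted p = 0.00294), and miR-30c-2, which rose by 0.58 ± 0.11 (edgeR adjusted p = 0.0114) on the log2 scale. Leukocyte miRNAs are relevant to miR-148a: 2 of 9 tested loci fell and 0 rose (median -0.56), the 2 being copies of miR-181a that carry the same reads (-0.81 ± 0.16, edgeR adjusted p = 0.0133), while miR-142 had -0.07 ± 0.12. In the red cell list 2 of 7 fell and 0 rose (median -0.04), with miR-486 at -0.60 ± 0.07 and miR-16-2 at -0.04 ± 0.07. In the platelet and endothelium list 2 of 6 rose and 0 fell (median -0.15), both copies of miR-24, and miR-126a had -0.15 ± 0.20. The 4 tested muscle loci had 0 called by edgeR, and 0 at an unadjusted p under 0.05, with miR-133a-1 at 0.83 ± 0.41. miR-133b, unlisted in control 2, was called higher in the fit with 4 assumed reads. It could pass the low-count filter of that fit only through its cadmium counts. The part of any of these cell types in the liver-linked levels was not tested.

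Likeness of pattern was measured as the root mean square difference of log2 CPM over the 4 libraries, after each locus was centred on its own mean, among 210 other mature sequences. Nearest to miR-192 were miR-423 (0.02), miR-3082 (0.03) and miR-194 (0.05), and nearest to miR-194 were miR-130b (0.02), miR-192 (0.05) and miR-423 (0.05). miR-148a was nearest to miR-30d (0.03), miR-191 (0.03) and miR-181d (0.05). miR-802 was nearest to miR-9-1 (0.07), miR-7236 (0.12) and miR-8112 (0.15), which are rare as well. The seed relatives were far from their partners: miR-215 was 136th of 210 from miR-192, at 0.43, and miR-148b was 124th of 210 from miR-148a, at 0.43. The median distance over all sequences was 0.34 to 0.37. The distances rest on 4 libraries and are a description.

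**Figure D4:**
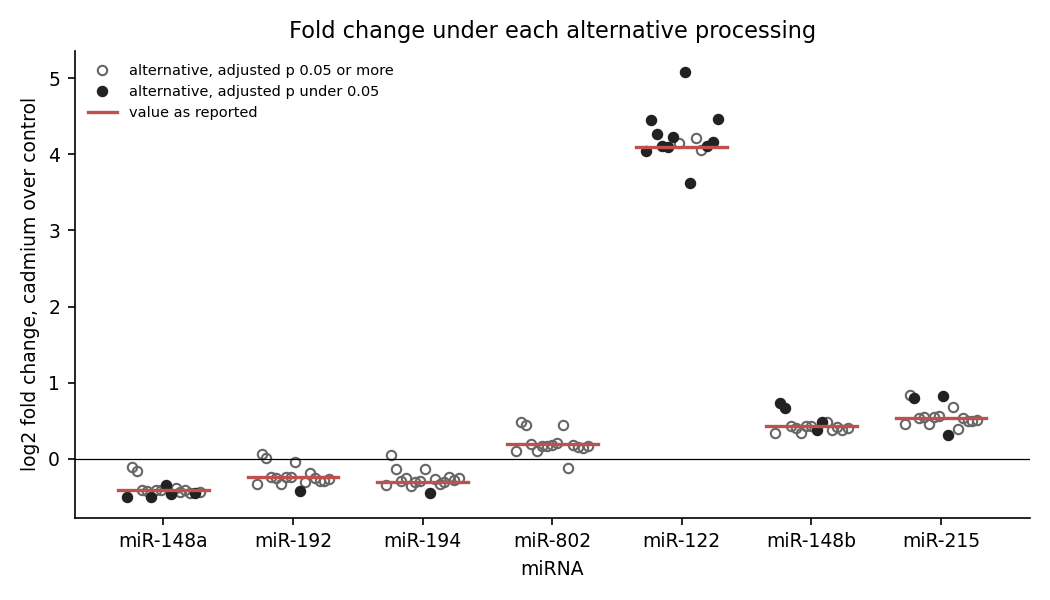
log2 fold change of cadmium over control for each miRNA as reported (red line) and under each alternative (points, filled where the adjusted p is under 0.05). miR-122 runs from 3.62 with control 2 left out to 5.08 with control 1 left out, where the assumed 4 reads are the only control. With control 2 taken as 0 reads it is 4.46. miR-192, miR-194 and miR-802 have values on both sides of 0.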

How the data were processed

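Whole blood small RNA was sequenced on an Illumina instrument, per the series' design text. The authors deposited 1 list of loci per library with the count of mature reads, which is not normalized. Bowtie 0.12.2, DESeq and the mm10 build are named, per the submitters' processing notes; how reads were counted is not stated there. An unnamed total in 1 list was left out. A star name that repeated its locus was merged. Sequences of control 2 were out of step with their rows (162 of 693 lengths match) and were not used.

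The main test was edgeR 4.0.16 in R 4.3.3 (quasi-likelihood, TMM, filterByExpr, two-sided, Benjamini-Hochberg, threshold 0.05, group as the only term) on 277 loci listed in all libraries with windows overlapping by at least 10 bases; the filter removed 1. For miR-122 and miR-194 it ran on 360 loci listed in any library, unlisted taken as 4 reads, of which 64 were removed. Standard errors are the log2 fold change over the square root of F. Shares have Wilson intervals in the tables and cover counting error only. Control pair and cadmium pair differed beyond sampling noise (chi-square per degree of freedom 1019 and 60.6). The fit was tested on simulated data.

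Named loci were all members, their seed and cluster relatives, the 2 most abundant tested loci of each list, the 3 nearest patterns per member and, for miR-122, the 3 loci of the same listing pattern with most cadmium reads. Members and lists were chosen with earlier results of these data known. Alternatives were other scalings, filters and windows, DESeq2 1.42.0, limma 3.58.1 voom, a block for the replicate number, single libraries omitted, 1 locus per sequence and unlisted taken as 0; those for miR-194 were added after seeing the data. Names absent from the lists are not analysed here.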

Additional observations from a re-analysis of the deposited data

How the results depend on the processing

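Over 14 alternatives miR-122 ran from 3.62 to 5.08 and kept its call in 11, a tally that rests largely on the count assumed for control 2. Only the fit without control 2 used no assumed count for miR-122. The highest value, without control 1, set cadmium against the assumed 4 reads alone. The other 3 were the replicate block (4.15, edgeR adjusted p = 0.0884) and the fits without cadmium 1 or cadmium 2. The 11 include the fits without control 1 or control 2, in which far larger shares of all loci were called. No alternative took control 2 as more than 4 reads, so the direction could not turn and was not tested. With 1 library left out the miR-122 values ran from 3.62 to 5.08. miR-192 turned to 0.057 with total counts and 0.0068 with upper quartile scaling, and ran from -0.42 to -0.045 with 1 library left out. miR-194 turned to 0.049 with total counts and ran from -0.45 to -0.14. miR-148a kept its direction in 16 of 16 alternatives; it passed with DESeq2 size factors (-0.50), with the DESeq2 test (-0.50) and with unlisted loci as 4 reads (-0.45), and ran from -0.47 to -0.34 with 1 library left out. miR-802 ran from -0.11 to 0.44 with 1 library left out. The causes of these changes were not tested.

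The number of loci called was 40, and was 65 with total counts, 26 with a mean CPM of at least 10, 19 with the replicate block, and 8 to 122 with 1 library left out. Of the 40, 22 were higher and 18 lower with cadmium. Total counts gave 57 and 8, the upper quartile 48 and 9, and DESeq2 size factors 21 and 27. Library numbers do not pair the samples by any label: deviations of same-numbered libraries correlated at 0.0047 over 276 loci. The block changed no other call of the 5 liver-linked miRNAs. A mean CPM of at least 10 left no value for miR-122 or miR-802, and ratios have no value where a miRNA is unlisted. Shares fell when copies were counted each time, for miR-148a in controls from 0.423% to 0.258%. At this depth the 95% Poisson intervals of miR-802 overlapped between all 4 libraries.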

Other observations

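For miR-148a, the direction of the difference depended on the blood miRNA it was set against. There were 0.0115 and 0.0112 reads of miR-148a per read of the red cell miRNA miR-486 in the controls, against 0.0132 and 0.0128 with cadmium, so the ratio was higher with cadmium. Per read of miR-16-1, another miRNA abundant in red cells, the controls had 0.0228 and 0.0204 and the cadmium libraries 0.0166 and 0.0169, so that ratio was lower. For miR-192 the ratio to miR-486 was 0.00697 and 0.00573 for control, against 0.00880 and 0.00752 for cadmium. These did not overlap, as levels did not at 69.9% of tested loci, while the ratio to miR-16-1 overlapped between the groups. In the main test miR-486 itself had a log2 fold change of -0.60 ± 0.07, and miR-16-1 had -0.04 ± 0.07. The ratios were chosen after the results were seen and were not tested.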
